A study of Mus musculus with 6 samples.

Results

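The BCL2 family holds the genes that decide, at the mitochondrial outer membrane, whether a stressed cell survives or dies. The 10 members described here were taken by gene symbol from a table of 21929 protein-coding genes. They are the 4 survival genes Bcl2, Bcl2l1, Bcl2l2 and Mcl1 and the 6 killer genes Bcl2l11, Bbc3, Pmaip1, Bid, Bad and Bak1. Each symbol stood for 1 row, and all 10 were found. The data are bulk RNA-seq of L929, an established line of mouse fibroblasts, kept in co-culture with tumour cells. Biotin-positive (3 libraries) stands for L929 that interacted with the tumour cells, abbreviated MFCSTCL in the labels, and Biotin-negative (3 libraries) for L929 of the co-culture without such interaction. Both groups therefore share the line and the co-culture, and no library of L929 cells grown alone was analysed here. How the biotin mark was placed is not given in the labels. They also do not say that the 3 libraries are separate cultures, so each p-value reflects spread among these libraries alone, and that spread may be technical.

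In healthy cells the survival proteins hold the killers in check by gripping a short helix in them, the BH3 domain. Under stress the BH3-only proteins, which include BIM (Bcl2l11), PUMA (Bbc3), NOXA (Pmaip1), BID and BAD, occupy the survival proteins or act on the effectors. Effectors such as BAK (Bak1) and BAX then form pores in the outer membrane, cytochrome c escapes and caspases are switched on. Many of these steps run through protein binding, cleavage and turnover, which RNA levels do not record.

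The BH3 segment is what the family shares in sequence, and its coding bases are shown to set the members beside each other. For 9 members the mouse transcript with the longest coding sequence (GENCODE vM21, GRCm38) was searched for a leucine or methionine codon followed, after 3 codons, by a glycine, alanine or serine codon and an aspartate codon, with no proline codon next. Each reading frame held exactly 1 match. The first 9 codons of it are printed 5′ to 3′ on the coding strand, with the first, the fifth and the sixth codon in capitals. The survival members read as follows.
Mcl1: CTGcggcgcgtgGGCGACggcgtgcag
Bcl2l1: CTGagagaggcaGGCGATgagtttgaa
Bcl2l2: ATGcgggctgctGGAGACgagtttgag
Bcl2: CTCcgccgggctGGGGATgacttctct
The killer members read as follows.
Bak1: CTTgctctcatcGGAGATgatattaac
Bad: CTCcgaaggatgAGCGATgagtttgag
Bid: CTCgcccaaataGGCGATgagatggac
Bbc3: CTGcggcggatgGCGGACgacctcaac
Bcl2l11: CTGcggcggatcGGAGACgagttcaac
All 9 segments lie within 1 exon, for example at chr3:95659436-95659462 on the plus strand for Mcl1 and at chr17:27022531-27022557 on the minus strand for Bak1 (GRCm38). The pattern itself fixes which amino acids these 3 codons can encode, so their likeness is no finding. Within what it allows, in the fifth place 7 members had a glycine codon, Bbc3 an alanine codon and Bad a serine codon, and Bcl2l2 alone had a methionine codon in the first place.

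Biotin-positive cells had more RNA of 2 survival genes, Bcl2l1 and Mcl1, and also more of the killers Bak1 and Bad, while the BH3-only gene Bbc3 was lower. The differences were modest: among members above 0 in every library none reached a 2-fold change. The fit was limma on log2(FPKM + 1) over the 11029 genes that reached 1 FPKM in 3 or more libraries, with Benjamini-Hochberg adjustment over all of them and a threshold of 0.05. FPKM scale fragments to gene length and library size, so levels can be compared between genes, and log2 differences are Biotin-positive minus Biotin-negative. Of the 9 members above 0 in every library 4 rose, 2 fell and 3 did not pass, so 66.7% were called, against 73.9% of all tested genes. The share called is therefore no higher than the background, which was 37.8% higher and 36.1% lower. The groups did not overlap in 5 of the 9 members, 4 higher and 1 lower, against 76.9% of all tested genes (39.1% higher and 37.8% lower). The median log2 difference was 0.02 over the 9 members and 0.01 over all tested genes. In bulk RNA a change in the share of cells that express a gene and a change in RNA per cell cannot be told apart.

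**Figure D1:**
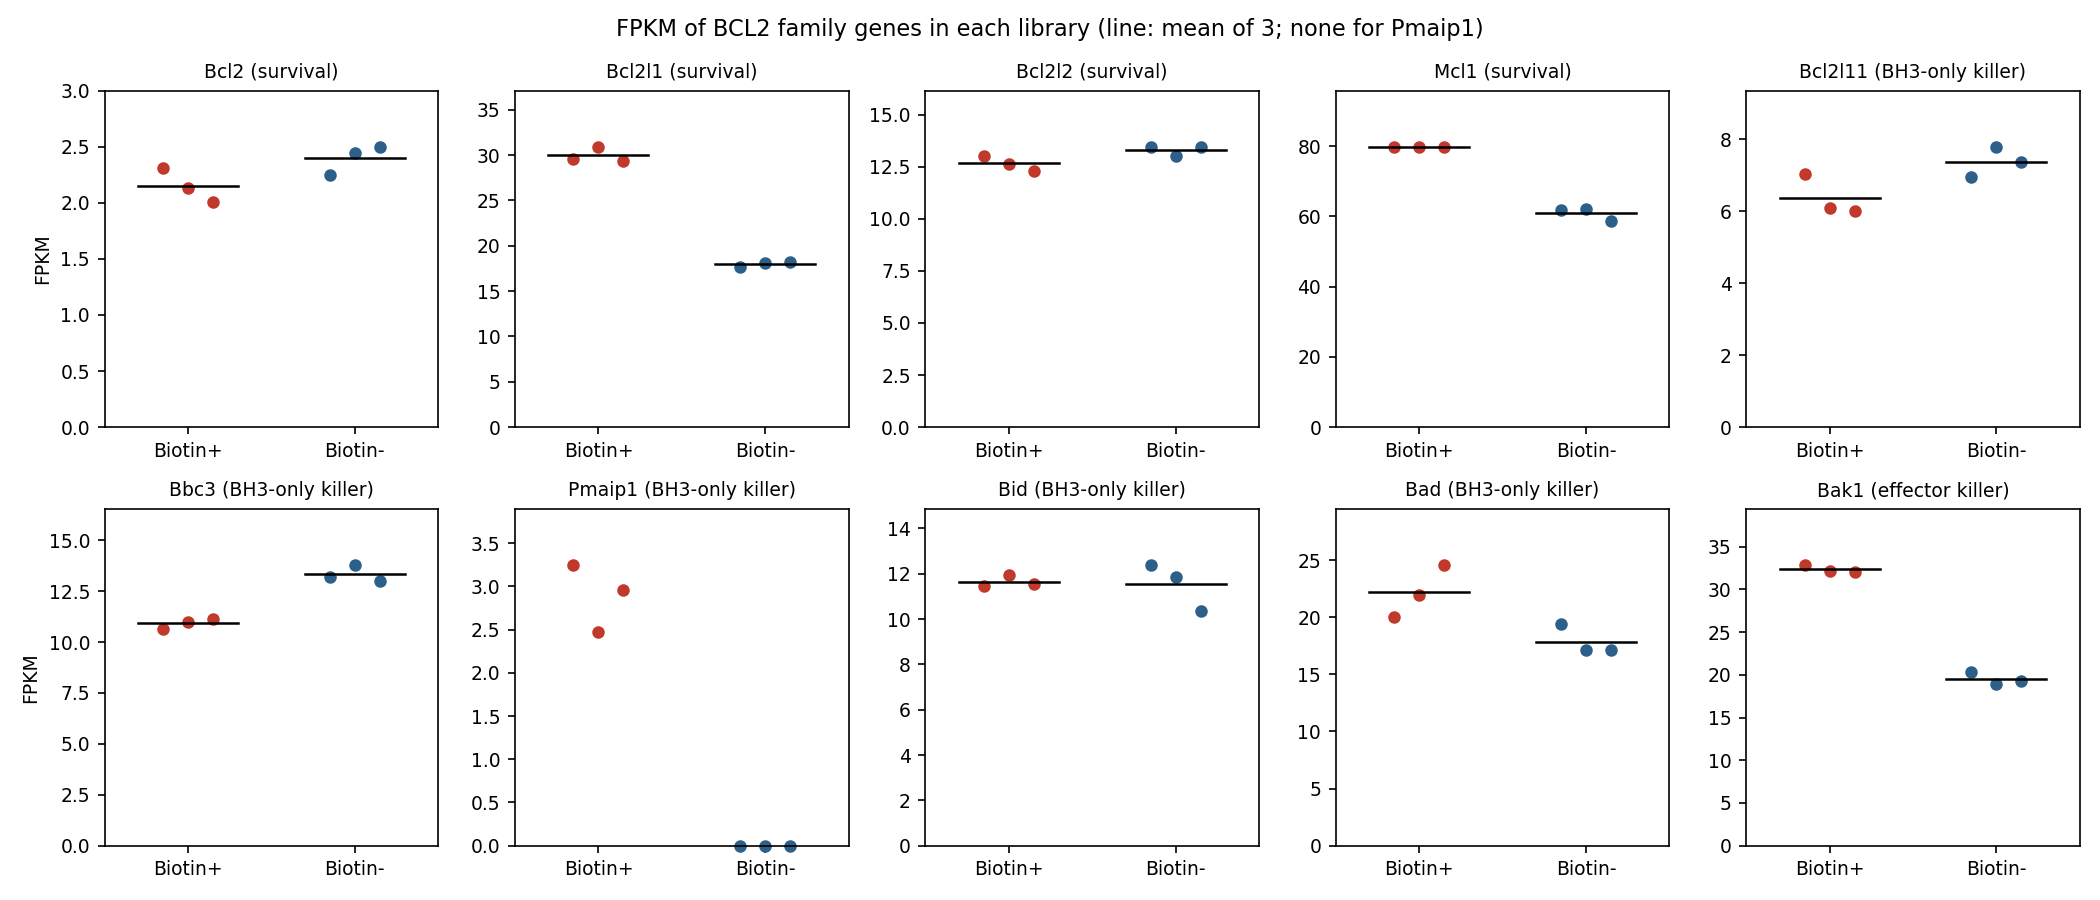
FPKM of the 10 BCL2 family genes in each library, with a linear axis from 0 in every panel; points are libraries, Biotin-positive on the left and Biotin-negative on the right, and lines are means of 3, drawn for all but Pmaip1. Bcl2l1, Mcl1, Bad and Bak1 lie higher without overlap in Biotin-positive libraries, Bbc3 lies lower, and Pmaip1 is listed at 0 in all 3 Biotin-negative libraries.

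Among the survival genes 2 of 4 rose and none fell, beside 37.8% higher and 36.1% lower among all tested genes. Bcl2l1 encodes BCL-XL, which binds BAK and BH3-only proteins, (gene at chr2:152780668-152831728, GRCm38 as all coordinates here) and stood at 29.6, 30.9 and 29.4 FPKM in Biotin-positive libraries, against 17.6, 18.1 and 18.2 FPKM in Biotin-negative ones. The 3 Biotin-positive values all lay above the 3 Biotin-negative ones, a 1.67-fold difference of the means (log2 difference 0.71, SE 0.0373, limma adjusted p = 4.9e-07). This was the widest difference among the survival members, and 18.1% of all tested genes differed by more. Mcl1 encodes a survival protein with a short half-life (chr3:95658788-95663176) and was the most abundant member, at 79.9, 79.7 and 79.8 FPKM in Biotin-positive libraries and 61.8, 62.2 and 58.7 FPKM in Biotin-negative ones. The groups did not overlap and the difference was 1.31-fold (log2 difference 0.38, SE 0.032, limma adjusted p = 8.06e-06). The log2 difference of Bcl2l1 ranged from 0.65 to 0.73 over 16 alternative analyses and that of Mcl1 from 0.26 to 0.40, and both passed in each.

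The 2 remaining survival genes did not pass. Bcl2l2 (chr14:54883377-54888234), which encodes BCL-W, had 13.0, 12.7 and 12.3 FPKM in Biotin-positive libraries and 13.5, 13.0 and 13.5 FPKM in Biotin-negative ones. The groups overlapped (log2 difference -0.07, 95% interval -0.17 to 0.03, limma adjusted p = 0.18). With each library rescaled to an equal FPKM sum Bcl2l2 passed as lower (log2 difference -0.13, limma adjusted p = 0.0193, in a range of 0.0193 to 0.396 over 16 alternatives). All but the first bases of Bcl2l2 overlap the annotated gene Gm20521 on the same strand, over 4794 bases, so reads of the pair could be shared. Gm20521 was listed at 0 to 4.85 FPKM across the libraries, and its part in the Bcl2l2 values was not tested. Bcl2 (chr1:106538178-106714274), the founding member, was low, at 2.31, 2.13 and 2.00 FPKM in Biotin-positive libraries and 2.25, 2.44 and 2.50 FPKM in Biotin-negative ones. Its groups overlapped as well (log2 difference -0.11, 95% interval -0.26 to 0.04, limma adjusted p = 0.154). These intervals leave room for a small difference in either gene.

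The effector Bak1, whose product oligomerises in the outer membrane, rose by nearly the same factor as Bcl2l1. It stood at 32.8, 32.2 and 32.0 FPKM in Biotin-positive libraries, against 20.4, 18.9 and 19.3 FPKM in Biotin-negative ones. The groups were far apart, with a ratio of means of 1.66 (log2 difference 0.70, SE 0.0389, limma adjusted p = 6.45e-07). Bak1 lies at chr17:27019810-27029009 on the minus strand, inside the span of Ggnbp1 and Gm50253 on the opposite strand, and the strand setting of the counting is not given in the sources used here. Both of those genes stayed low, between 0.140 and 1.35 FPKM in all libraries. The level of Bcl2l1 relative to Bak1 was 0.927 ± 0.0311 in Biotin-positive and 0.922 ± 0.0490 in Biotin-negative libraries (SD, n = 3 each), a gap smaller than either SD. Mcl1 relative to Bak1 was 2.47 ± 0.0320 in Biotin-positive and 3.12 ± 0.146 in Biotin-negative libraries (SD, n = 3 each), with no overlap between the groups. Mcl1 encodes another survival protein known to hold BAK. Its RNA was thus less in excess of Bak1 RNA in Biotin-positive cells, while both transcripts were higher there. Protein levels were not measured here.

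The BH3-only genes went in both directions. Bbc3 (chr7:16308393-16318205) encodes PUMA, a target of p53, and had 10.6, 11.0 and 11.2 FPKM in Biotin-positive libraries, against 13.2, 13.8 and 13.0 FPKM in Biotin-negative ones. It fell without overlap, to a ratio of means of 0.820 (log2 difference -0.26, SE 0.0444, limma adjusted p = 0.000656). Bad (chr19:6941861-6951899) encodes a sensitizer that survival kinases such as AKT and PIM inactivate, and stood at 20.0, 22.0 and 24.6 FPKM in Biotin-positive libraries and 19.4, 17.1 and 17.1 FPKM in Biotin-negative ones. Every Biotin-positive value lay above every Biotin-negative one, but the lowest of the one and the highest of the other were close (1.24-fold, log2 difference 0.30, SE 0.0769, limma adjusted p = 0.00753). Bad shares 620 bases at its start with Gpr137 on the opposite strand, which had 12.4 to 14.3 FPKM in the 6 libraries.

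Bcl2l11 (chr2:128126038-128162547), the gene of BIM, passed narrowly as lower. Its values were 7.04, 6.10 and 6.01 FPKM in Biotin-positive libraries and 6.96, 7.80 and 7.37 FPKM in Biotin-negative ones. The first Biotin-positive value lay above the lowest Biotin-negative one, so the groups overlapped (ratio of means 0.866, log2 difference -0.18, SE 0.0701, limma adjusted p = 0.0414). The call was lost in 6 of 16 alternative analyses, where the adjusted p lay between 0.074 and 0.127, and over all 16 the adjusted p lay between 0.0106 and 0.127 and the log2 difference between -0.25 and -0.15. It was lost without Biotin-positive replicate 2 (limma adjusted p = 0.119) or 3 (0.127) and without Biotin-negative replicate 2 (0.12) or 3 (0.0821). Bid (chr6:120891930-120916853), whose product caspase 8 cleaves to link death receptors to mitochondria, did not pass, at 11.5, 11.9 and 11.5 FPKM in Biotin-positive libraries and 12.4, 11.8 and 10.4 FPKM in Biotin-negative ones. Its log2 difference was 0.02 with a 95% interval from -0.13 to 0.16 (limma adjusted p = 0.832).

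Pmaip1, the gene of NOXA, which binds MCL1 and is another p53 target, was listed at 3.25, 2.47 and 2.95 FPKM in the Biotin-positive libraries and at 0 in all 3 Biotin-negative ones. A value of exactly 0 in a table without counts can be a failed estimate, so no fold is given. It was tested only through its Biotin-positive values and is left out of the counts above. Among all genes 63, with Pmaip1 one of them, were at 0 in all 3 Biotin-negative libraries with at least 1 FPKM in each Biotin-positive one, and 0 genes showed the opposite pattern.

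**Figure D2:**
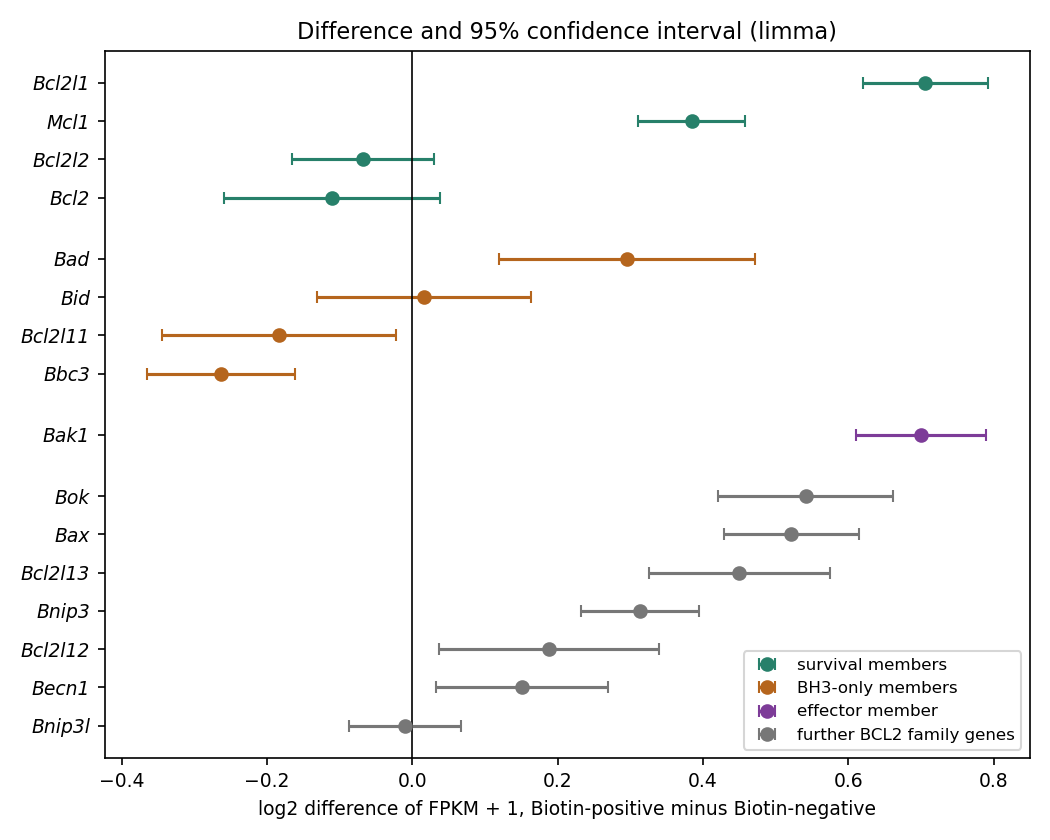
Log2 difference of FPKM + 1 between Biotin-positive and Biotin-negative libraries for the 9 BCL2 family members above 0 in every library and for 7 further family genes; bars are 95% confidence intervals from limma. Bcl2l1 (0.71) and Bak1 (0.70) lie furthest to the right, Bbc3 (-0.26) and Bcl2l11 (-0.18) lie left of 0, and the intervals of Bcl2l2, Bcl2, Bid and Bnip3l cross 0.

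Levels per length kept much the same order in both groups. In Biotin-positive libraries Mcl1 came first, followed by Bak1, Bcl2l1, Bad, Bcl2l2, Bid, Bbc3, Bcl2l11, Pmaip1 and Bcl2, and no neighbours in that order overlapped in range. In Biotin-negative libraries Mcl1, Bak1 and Bcl2l1 also led, but Bcl2l1 and Bad overlapped, as did Bbc3 and Bcl2l2, and Pmaip1 came last. Bbc3 stood ahead of Bid in Biotin-negative libraries and behind it in Biotin-positive ones.

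Both sides of the family were higher in sum. The 4 survival genes summed to 125 ± 0.997 FPKM in Biotin-positive and 94.6 ± 1.53 FPKM in Biotin-negative libraries, and the 6 killer genes to 86.4 ± 1.60 FPKM in Biotin-positive and 69.6 ± 2.55 FPKM in Biotin-negative libraries (SD, n = 3 each). Mcl1 made up 64.1% of the survival sum in Biotin-positive and 64.4% in Biotin-negative libraries. Bak1 made up 37.5% of the killer sum in Biotin-positive and 28.1% in Biotin-negative libraries. Survival over killer FPKM was 1.46, 1.46 and 1.40 in the Biotin-positive libraries and 1.32, 1.38 and 1.38 in the Biotin-negative ones. These values did not overlap, but the difference between the means, 1.44 and 1.36, depended on the choice of genes and on scaling. With Bax counted among the killers the ratio was 0.609, 0.609 and 0.615 in Biotin-positive libraries and 0.622, 0.647 and 0.609 in Biotin-negative ones, which overlapped in the opposite direction. After quantile normalization the mean was 1.40 in Biotin-positive and in Biotin-negative libraries. Without Pmaip1, a setting chosen after seeing the data, it was 1.49 in Biotin-positive and 1.36 in Biotin-negative libraries. The ratio is a description over chosen genes and has no test.

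**Figure D3:**
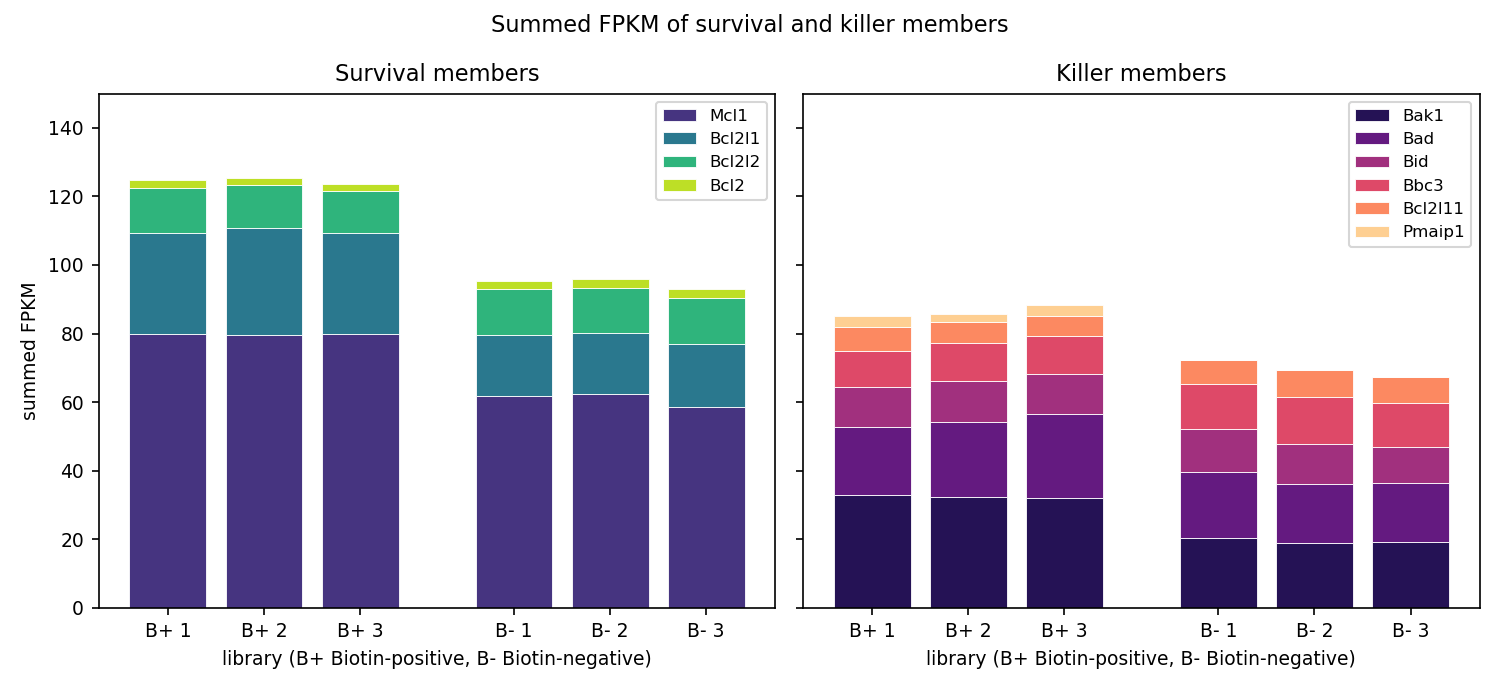
Summed FPKM of the 4 survival members (left) and the 6 killer members (right) in each library, stacked by gene, with Biotin-positive libraries left of Biotin-negative ones and a common axis from 0. Both sums are higher in Biotin-positive libraries, with Mcl1 as the largest part of the survival sum and Bak1 as the largest part of the killer sum.

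Further family genes were listed beside the members. Of 16 such genes 7 were tested, of which 6 rose and 0 fell (median log2 difference 0.31). Among all tested genes 73.9% were called, 37.8% higher and 36.1% lower, and the count over these few genes has no test. Bax, the second main effector, was the most abundant family gene, at 119, 120.4 and 113 FPKM in Biotin-positive libraries and 80.8, 78.6 and 85.3 FPKM in Biotin-negative ones. It rose without overlap (1.44-fold, log2 difference 0.52, SE 0.0406, limma adjusted p = 5.28e-06). Bok, a BAX-like effector, rose 1.48-fold, to 25.5 ± 1.05 FPKM in Biotin-positive libraries against 17.2 ± 1.03 FPKM in Biotin-negative ones (SD, n = 3 each, limma adjusted p = 2.12e-05). The effectors Bak1, Bax and Bok were thus all higher in Biotin-positive cells, and each passed in 16 of 16 alternative analyses. Bnip3, which encodes a hypoxia-linked mitochondrial protein with a BH3-like segment, averaged 82.1 ± 3.36 FPKM in Biotin-positive and 65.8 ± 0.300 FPKM in Biotin-negative libraries (SD, n = 3 each, limma adjusted p = 5.43e-05). Bcl2l13, Bcl2l12 and the autophagy gene Becn1 rose by log2 differences of 0.45, 0.19 and 0.15 (limma adjusted p = 8.51e-05, 0.0293 and 0.0272). The calls of Bcl2l12 and Becn1 were lost in 6 of 15 and 4 of 16 alternatives, with adjusted p up to 0.101 and 0.162. For Bcl2l12 these were without Biotin-positive replicate 1 or 3 or Biotin-negative replicate 3, and for Becn1 without Biotin-positive replicate 3 or Biotin-negative replicate 2 or 3, beside the equal FPKM sum for both and, for Bcl2l12, no filter and the replicate block. Bcl2l13 meets Bid end to end on the opposite strand, over 913 shared bases. Bnip3l, which acts in the removal of mitochondria, did not pass, at 36.8 FPKM in Biotin-positive and 37.1 FPKM in Biotin-negative libraries. The BH3-only gene Bmf stayed between 0.239 and 0.334 FPKM and Bcl2l15 between 0.746 and 1.34 FPKM, while Bik, Hrk, Bcl2l14 and Bcl2a1b had no value above 0.226 FPKM. Bcl2a1a, Bcl2a1d and Bcl2l10 were at 0 in all libraries, and the Bcl2a1 genes are near-identical copies whose reads counting may lose.

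Downstream of the family, the transcripts of pore, apoptosome and caspases were split. Of 16 genes tested 7 rose, 3 fell and 6 did not pass (median log2 difference 0.05), beside 37.8% higher and 36.1% lower among all tested genes. Cycs, the gene of cytochrome c, rose to 67.4 ± 1.46 FPKM in Biotin-positive libraries, against 38.4 ± 1.09 FPKM in Biotin-negative ones (SD, n = 3 each, limma adjusted p = 1.52e-07). Apaf1, which assembles with cytochrome c into the apoptosome, rose to 4.88 ± 0.150 FPKM in Biotin-positive libraries, against 2.92 ± 0.184 FPKM in Biotin-negative ones (SD, n = 3 each, limma adjusted p = 2.83e-05). Vdac2, a channel protein that binds BAK at the outer membrane, rose to 113 ± 3.38 FPKM in Biotin-positive libraries, against 76.4 ± 1.17 FPKM in Biotin-negative ones (SD, n = 3 each, limma adjusted p = 8.07e-07). Endog, a mitochondrial nuclease, had the largest change of this list and fell to 6.70 ± 0.733 FPKM in Biotin-positive libraries, against 13.9 ± 1.11 FPKM in Biotin-negative ones (SD, n = 3 each, limma adjusted p = 9.72e-06). The nuclease gene Dffb, named after its values were seen, also fell, to 2.89 FPKM in Biotin-positive libraries, against 4.07 FPKM in Biotin-negative ones (limma adjusted p = 0.00399).

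Inhibitors of apoptosis proteins (IAPs), only some of which restrain caspases, showed 2 rises and 2 falls among 6 tested genes of 7 listed (median log2 difference 0.01). The shares over all tested genes were 37.8% higher and 36.1% lower. Birc5, the gene of survivin, which also acts in mitosis, rose 2.18-fold, to 89.2 ± 2.04 FPKM in Biotin-positive libraries against 41.0 ± 1.28 FPKM in Biotin-negative ones (SD, n = 3 each, limma adjusted p = 2.95e-08). Birc6 rose by a log2 difference of 0.15 (limma adjusted p = 0.029), a call lost without Biotin-positive replicate 1 or 2, without Biotin-negative replicate 2 or 3 and with equal FPKM sums, with adjusted p up to 0.108. Birc2, the gene of cIAP1, fell to 8.92 FPKM in Biotin-positive libraries, against 11.5 FPKM in Biotin-negative ones (limma adjusted p = 0.000113). Naip5 fell to 2.70 FPKM in Biotin-positive libraries, against 4.89 FPKM in Biotin-negative ones (limma adjusted p = 3.93e-05), but it belongs to a cluster of similar genes, so its level is uncertain.

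In the death receptor branch 8 tested genes reached 1 FPKM in a library of both groups. Of these 4 rose, 0 fell and 4 did not pass (median log2 difference 0.21). With 37.8% of all tested genes higher and 36.1% lower, this count over few genes is a description. Tnfsf10, the gene of the death ligand TRAIL, had 1.28, 1.11 and 1.15 FPKM in Biotin-positive libraries and 0.457, 0.454 and 0.457 FPKM in Biotin-negative ones. It entered the fit through its Biotin-positive values alone, so it is given as a description and left out of this count. Tnfrsf10b, the mouse TRAIL receptor, rose 1.39-fold (11.7 FPKM in Biotin-positive and 8.42 FPKM in Biotin-negative libraries, limma adjusted p = 0.000137). The initiator Casp8 rose 1.43-fold (13.1 FPKM in Biotin-positive and 9.11 FPKM in Biotin-negative libraries, limma adjusted p = 0.000213). Cflar, which encodes the caspase 8 inhibitor FLIP, also rose, 1.29-fold (16.5 FPKM in Biotin-positive and 12.8 FPKM in Biotin-negative libraries, limma adjusted p = 0.000205).

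Of 14 tested transcription factors and partners known to act on BCL2 family genes 4 rose, 8 fell and 2 did not pass (median log2 difference -0.13). All tested genes had 37.8% higher and 36.1% lower. Ddit3, the gene of CHOP, an endoplasmic reticulum stress factor that raises Bcl2l11 and lowers Bcl2 in the textbook account, fell to 171 ± 8.14 FPKM in Biotin-positive libraries, against 694 ± 12.9 FPKM in Biotin-negative ones (SD, n = 3 each, limma adjusted p = 2.58e-09). Mdm2, which encodes the ligase of p53 and is itself a p53 target, rose 2.08-fold, to 49.9 ± 1.92 FPKM in Biotin-positive libraries against 24.0 ± 0.572 FPKM in Biotin-negative ones (SD, n = 3 each, limma adjusted p = 8.01e-08). Trp53 itself, the gene of p53, named after its values were seen, fell to 85.7 FPKM in Biotin-positive libraries, against 93.7 FPKM in Biotin-negative ones (log2 difference -0.13, limma adjusted p = 0.0128). Among family genes known as p53 targets Bbc3 fell, Bax rose and Pmaip1 had values above 0 in the Biotin-positive libraries alone. E2f1 rose 1.82-fold and Jun 1.63-fold (limma adjusted p = 7.89e-07 and 2.77e-06).

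Among 12 kinases, ligases and binding partners of BCL2 family proteins 5 rose, 5 fell and 2 did not pass (median log2 difference 0.05). For all tested genes the shares were 37.8% higher and 36.1% lower. Pim1, a kinase that phosphorylates BAD, rose 3.78-fold, to 31.0 ± 0.970 FPKM in Biotin-positive libraries against 8.18 ± 0.898 FPKM in Biotin-negative ones (SD, n = 3 each, limma adjusted p = 8.67e-08). The other PIM genes, named after their values were seen, went opposite ways. Pim2 had 4.29 FPKM in Biotin-positive and 3.48 FPKM in Biotin-negative libraries (limma adjusted p = 0.0229). Pim3 was lower, at 36.3 FPKM in Biotin-positive and 41.6 FPKM in Biotin-negative libraries (limma adjusted p = 0.00243). The AKT genes went opposite ways, with Akt1 at 96.0 FPKM in Biotin-positive and 65.9 FPKM in Biotin-negative libraries (limma adjusted p = 4.7e-06) and Akt2 at 25.7 FPKM in Biotin-positive and 31.3 FPKM in Biotin-negative libraries (limma adjusted p = 0.00155). Usp9x, which removes ubiquitin from MCL1, rose 1.24-fold (14.4 FPKM in Biotin-positive and 11.6 FPKM in Biotin-negative libraries, limma adjusted p = 0.000323).

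**Figure D4:**
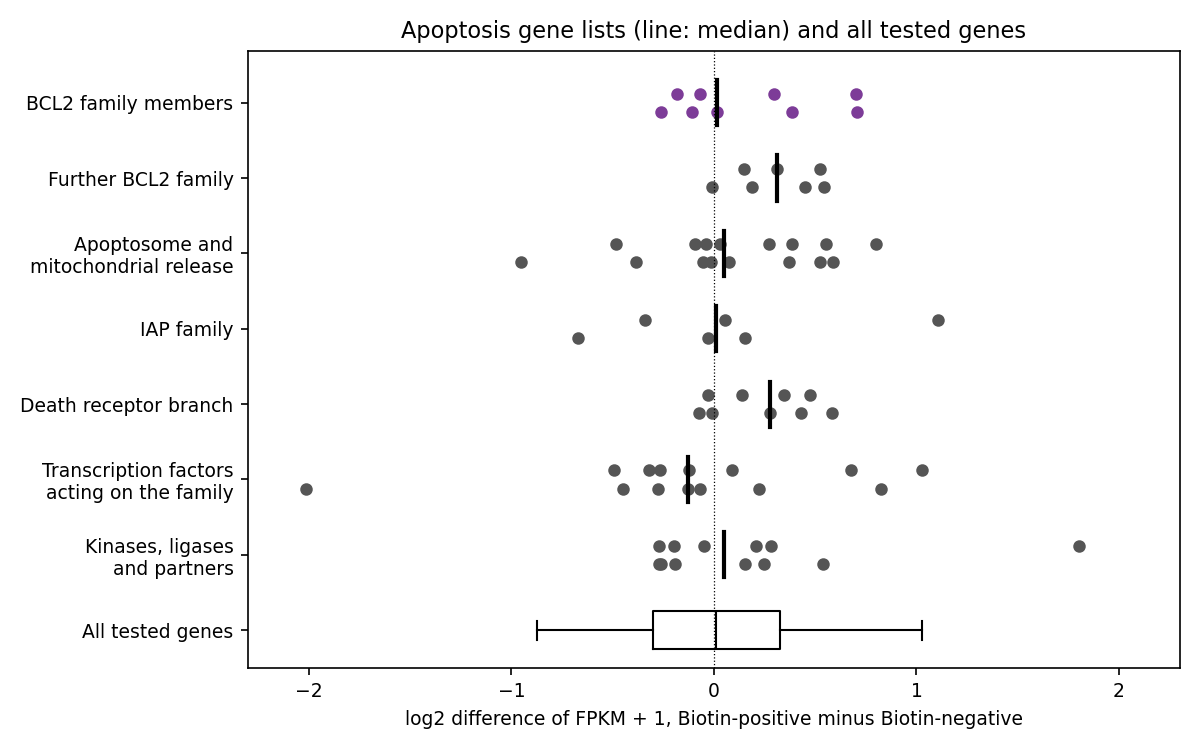
Log2 difference of FPKM + 1, Biotin-positive minus Biotin-negative, for each tested gene above 0 in every library of the BCL2 family members and of 6 further apoptosis lists; black lines are medians, Tnfsf10 is included in its list, and the box gives all tested genes (median and quartiles, whiskers to the 5th and 95th percentiles). The medians lie between -0.13 and 0.31, and single genes such as Ddit3 (-2.01), Pim1 (1.80) and Birc5 (1.10) stand furthest out.

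The windows before the transcription starts of the survival genes that rose are shown because the title of the series names YAP, which acts through TEAD factors, and both hold the TEAD core letters GGAATG. The 250 bases before the start come from RefSeq (GRCm38.p6), 5′ to 3′ on the strand of the gene, with the match in capitals. The window of Mcl1 is chr3:95658471-95658720 on the plus strand, and that of Bcl2l1 is chr2:152831729-152831978 on the minus strand, the outermost of 3 starts in the table.
Mcl1: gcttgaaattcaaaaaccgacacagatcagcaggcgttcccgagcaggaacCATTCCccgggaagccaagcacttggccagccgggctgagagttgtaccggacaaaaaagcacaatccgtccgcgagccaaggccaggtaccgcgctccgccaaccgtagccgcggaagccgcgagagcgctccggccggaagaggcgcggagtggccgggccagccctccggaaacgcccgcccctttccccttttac
Bcl2l1: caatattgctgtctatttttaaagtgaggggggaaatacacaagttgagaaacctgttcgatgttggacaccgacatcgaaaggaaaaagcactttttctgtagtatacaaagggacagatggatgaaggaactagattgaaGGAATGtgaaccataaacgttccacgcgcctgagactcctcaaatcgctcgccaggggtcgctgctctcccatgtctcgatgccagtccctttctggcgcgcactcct
The match lies 194 to 199 bases before the start of Mcl1, on the opposite strand, and 103 to 108 bases before that of Bcl2l1. Of 15 windows of 9 members these 2 held GGAATG on either strand, and 12.6% of the 32851 windows of all genes did. The letters were thus about as frequent before the members as before genes at large. The AP-1 letters TGANTCA were in 0 of the 15 windows (6.75% of all), the GC box GGGCGG in 10 (32.7% of all), CCAAT in 4 (33.8%), TGACG in 2 (17.8%) and the E2F letters TTTNGCGC in 1, at another start of Bcl2l1 (1.13%). Both strands were searched, and matches of one motif were allowed to overlap those of another. The rising killers Bak1 and Bad had no GGAATG in these windows. A match of letters is a description of the sequence and no measure of binding.

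The libraries were alike within groups. FPKM sums lay between 349753 and 356681 in Biotin-positive and between 337771 and 340511 in Biotin-negative libraries, and the reads per library are unknown. The log2(FPKM + 1) values of 2 libraries, compared across genes, had Pearson correlations of 0.998 to 0.999 within a group and 0.977 to 0.978 across groups. Mitochondrial genes took 3.79 ± 0.0706% of FPKM in Biotin-positive and 3.75 ± 0.162% in Biotin-negative libraries (SD, n = 3 each, two-sided exact permutation p = 0.8, where 0.1 is the smallest possible). Of 10 fibroblast markers 7 reached testing, with Vim higher and 6 matrix and receptor genes lower in Biotin-positive libraries, while Thy1, Dcn and Lum stayed below 1 FPKM in every library. The fibroblast list summed to 1914 to 1999.7 FPKM in Biotin-positive and 3364 to 3607 FPKM in Biotin-negative libraries. This sum mixes opposite directions, with Vim at 1418 FPKM in Biotin-positive and 658 FPKM in Biotin-negative libraries. Its fall came mainly from a single matrix gene. Of 18 epithelial markers Krt7 and Krt8 alone reached 1 FPKM, and only in Biotin-positive libraries, so their test was set by the filter and is not given. Krt7 had 24.0 to 26.1 FPKM in Biotin-positive and 0.173 to 0.320 FPKM in Biotin-negative libraries, Krt8 had 20.4 to 21.1 FPKM in Biotin-positive and 0.0204 to 0.0509 FPKM in Biotin-negative libraries, and the list summed to 46.0 to 48.2 FPKM in Biotin-positive and 1.39 to 1.57 FPKM in Biotin-negative libraries. The other 16, Epcam and Cdh1 among them, were below 1 FPKM everywhere, and 3 of them were at 0. Leukocyte markers summed to 8.55 to 10.5 FPKM in Biotin-positive and 7.81 to 9.53 FPKM in Biotin-negative libraries, a sum of genes that went opposite ways. Cd68 was lower, at 6.21 to 7.72 FPKM in Biotin-positive and 7.64 to 9.32 FPKM in Biotin-negative libraries (log2 difference -0.24, limma adjusted p = 0.0402), with overlapping groups. Cd79a had 1.94 to 2.82 FPKM in Biotin-positive and 0.0712 to 0.159 FPKM in Biotin-negative libraries and was tested only through the Biotin-positive ones. The other 4 leukocyte markers were below 1 FPKM in every library, and the endothelial markers summed to under 1 FPKM in each. The part of these marker differences in the BCL2 family results was not tested.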

How the data were processed

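RNA of 6 libraries was measured by RNA-seq. Per the submitters' processing notes, cutadapt 1.9.1, HISAT2 2.2.1 and HTSeq 0.6.1 were used with GRCm39. The deposited values are FPKM, 1 column per library, per the file headers; the program that scaled them and the strand setting are not given in the sources used here. The notes name GRCm39, but 99.1% of the 21887 gene identifiers found in GENCODE vM21 had exactly its GRCm38 coordinates, so coordinates here are GRCm38. Low values showed no steps of single reads, so depth is unknown and precision rests on 3 libraries per group.

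Groups came from the labels. Values were tested as log2(FPKM + 1) with limma 3.58.1 in R 4.3.3 (eBayes with a trend, two-sided) on genes that reached 1 FPKM in 3 or more of the 6 libraries. The fit was tested on simulated data of 11029 genes, with 50 genes changed at each size. It recovered 36% of them at a log2 difference of 0.25, 84% at 0.5, 96% at 1 and 98% at 2. Of its calls 5.99% were false. Far fewer genes were changed there than were called in the data, so its rates may not carry over. Members, gene lists and promoter motifs were chosen with earlier results of these data known. All members and detected further family genes are named, and from each other list up to 4 passing genes with the largest change. Where a symbol was on several rows (Ddit3), the row with the highest mean was used. A list is described by counts, with no test of its own, and 1 gene counted in a list is not reported here by name. Transcript matches in other genes were searched with blastn 2.17.0 (at least 100 bases, 98% identity): they covered 22.5% of Bak1 (Ggnbp1), 14.0% of Bcl2l2 (Gm20521) and 6.93% of Bcl2, and 0% of the other members. Alternatives were 2 pseudocounts, 2 filters, 3 scalings, 2 eBayes settings, a replicate term and leaving out each library.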

Additional observations from a re-analysis of the deposited data

How the results depend on the processing

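The calls of Bcl2l1, Mcl1, Bbc3, Bad and Bak1 kept their direction and passed in 16 of 16 alternatives, with limma adjusted p of at most 0.027, that of Bad. Of the 29 other named genes that were recomputed and reached 1 FPKM in a library of both groups, 26 kept their call throughout. None of them reversed, and Pim2, Pim3 and Cd68 were not recomputed. Among the members 4 higher calls held throughout. The lower calls fell to 1 with no filter on low values and with the replicate number as a block, where Bcl2l11 had an adjusted p of 0.0741, and ranged from 1 to 2 over the fits that left out a library. Bcl2 and Bid passed in none. Over those fits the higher and lower calls among all genes ranged from 3583 to 4044 and from 3585 to 3808, against 4168 and 3985. The replicate number did not pair the libraries: same-numbered libraries had correlations of deviations of 0.0371, 0.0120 and 0.0143, and the block changed no other member call.

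List counts that moved by over 1.5 times were few. The 5 higher calls among kinases, ligases and partners became 3 with no filter, with a minimum of 5 FPKM and with equal FPKM sums, and 3 to 4 without a library. At a minimum of 5 FPKM, which tests fewer genes, the IAP list had 1 lower call and the death receptor list 3 higher ones. With equal FPKM sums, which move the median of all genes from 0.01 to -0.05, and with quantile normalization the apoptosome list had 5 lower calls and the death receptor list 1. Equal sums left 1 higher IAP call. Without a library the higher calls ranged from 1 to 2 for IAPs and from 3 to 5 for the death receptor list, in which Tnfsf10 is counted here. The survival to killer ratio was 0.519 in Biotin-positive and 0.484 in Biotin-negative libraries without Mcl1, 0.611 and 0.626 with Bax, and, in Biotin-positive libraries, 1.40 after quantile normalization and 1.49 without Pmaip1, a setting chosen after seeing the data. It ranged from 1.43 to 1.46 in Biotin-positive and from 1.35 to 1.38 in Biotin-negative libraries without single libraries. The causes of these changes were not tested.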

Other observations

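The asymmetry of exact zeros reaches beyond Pmaip1. At a minimum of 2 FPKM in each library of the other group, 35 genes were at 0 in all 3 Biotin-negative libraries and 0 genes were at 0 in all 3 Biotin-positive ones.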
